A study of Rattus norvegicus with 24 samples.

Results

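The colonic response to a high-fat diet was examined in rats born with intra-uterine growth retardation (IUGR), a birth state of low weight for gestational age. IUGR rats on the high-fat diet (RHFD) were compared with IUGR rats on chow (RND), by group label, which took in 12 of the 24 arrays of the series. All animals were Sprague Dawley rats, an outbred laboratory strain, aged 8 months, and both groups shared the IUGR birth state, so that diet was the only labelled difference. Control-born rats on high-fat diet (CHFD) and on chow (CND) entered the fit for its estimate of spread, and their values are given beside those of the IUGR rats. The cause of the growth retardation, the composition and length of the diet, the sex of the animals and any pooling of animals are not stated by the labels.

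Arrays were averaged where their titles carried the same number (21B, 25B and 3A, each on 2 arrays of RHFD), which left 3 RHFD and 6 RND samples, 9 of the 20 in the series. The labels do not say that same-numbered arrays come from 1 animal or that different numbers are different animals, so the p-values measure only the spread between these samples. Same-numbered arrays differed with an SD of 0.248 to 0.279 on the log2 scale, against 0.377 to 0.701 over the 15 pairs of different samples of 1 group on different chips. Every RHFD sample was read on both chips, while RND 17B, 19B and 33B were on chip 1 and RND 35B, 37B and 39B on chip 2. The number of probes detected per array was 9003 to 9647 in RHFD and 8490 to 9872 in RND. The mean number detected per sample was 9288 ± 70.5 (SD, n = 3) in RHFD and 9339 ± 499 (SD, n = 6) in RND, a difference of -50.7 (exact two-sided permutation test over 84 splits, p = 0.881; the smallest p these groups allow is 0.0238). RND 17B stood apart from its group: its levels had an SD of 0.610 from the mean of the other RND samples, against 0.309 to 0.446 for the other 5, and it had the lowest first principal component of all 20 samples (-47.1).

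The colonic epithelium is a single layer of absorptive cells, mucus-making goblet cells, hormone-releasing enteroendocrine cells and chemosensory tuft cells, renewed from dividing cells at the crypt base. It absorbs water, salts and bacterial fatty acids, metabolises foreign compounds, and holds the microbiota at a distance with mucus and secreted antimicrobial proteins. Fatty acids bind nuclear receptors of the PPAR family, and sterols lower the transcription of the cholesterol synthesis genes. How much dietary fat or sterol reached these cells was not measured. The labels name the material as colonic epithelial cells. Of the epithelial markers 19 members were tested, with a mean log2 level of 10.54 to 10.63 in RHFD and 10.29 to 10.56 in RND and a summed intensity of 135096 to 143817 and 114516 to 145609. Of the fibroblast, smooth muscle and endothelial list members on the array, 14 of 27, 4 of 13 and 9 of 16 were detected on none of the 12 arrays. Among these were Col3a1, Fn1, Sparc, Pdgfra, Tagln and Cdh5. Vim, Timp1, Fbln1 and Serpinf1 of the fibroblast list and Flna, Csrp1, Smtn and Tpm1 of the smooth muscle list were detected on all 12. So were Tie1 and Aqp1 of the endothelial list. Which cells the detected members came from was not tested. Immune transcripts were present, as described below. In such bulk samples, more cells of a type and more RNA per cell cannot be told apart.

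Of the 22523 probes on the array, 10193 passed the detection filter and were tested. In the fit of limma with Benjamini-Hochberg adjustment over these probes, 43 probes (0.422%) passed an adjusted p of 0.05, the threshold used throughout, with 23 (0.226%) higher and 20 (0.196%) lower in RHFD. They comprised 38 named genes, 21 higher and 17 lower, and 5 probes without a gene name. The median log2 difference of all probes tested was -0.004, and 982 probes (9.63%) had an unadjusted p under 0.05, 460 (4.51%) higher and 522 (5.12%) lower. In 40 of the 43 probes the RHFD and RND samples did not overlap, which held for 611 of all probes (5.99%), with RHFD above in 256 (2.51%) and below in 355 (3.48%). With all 24 arrays in the fit and the title number as a random block, 90 probes passed, among them 41 of the 43, all but Inpp5d and Agmat. Other settings kept fewer of the 43: 28 in a fit of only RHFD and RND (59 passed, 24 higher and 35 lower), 30 without a chip term, 18 without background correction, 18 on the authors' normalized values and 16 without the detection filter (19 passed in each of these 3). Scaling of every array to the same median kept 25 of the 43, with 28 passing, 12 higher and 16 lower, and shifted the median of all probes to -0.0988.

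**Figure D1:**
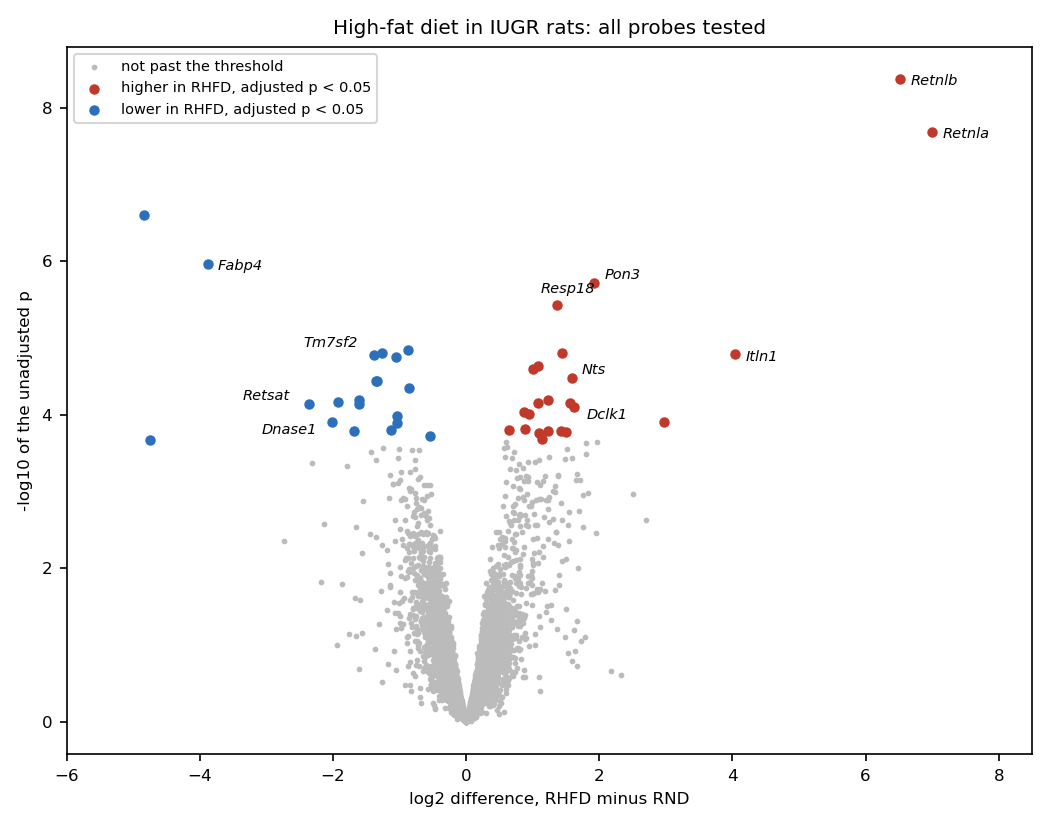
Each point is 1 of the 10193 probes tested, with the log2 difference RHFD minus RND on the x axis and -log10 of the unadjusted limma p on the y axis. Red and blue points are the 23 probes higher and the 20 lower at an adjusted p under 0.05. Retnla and Retnlb lie farthest to the right, at 7.004 and 6.51.

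The largest increases were in secreted proteins of mucosal defence. Retnla and Retnlb encode resistin-like molecules, which are small cysteine-rich proteins. In mice, Retnlb is a goblet cell product that keeps bacteria from the mucosal surface, and Retnla is made by macrophages and epithelia in responses to parasites. Retnla (ILMN_1362534, GRCr8 chromosome 11, 65424685 to 65426484) had log2 levels of 12.99, 14.27 and 12.49 in RHFD 21B, 25B and 3A, against 4.48 to 8.63 with a median of 5.53 in RND. It rose 128-fold (95% confidence interval 41.8 to 394), with a log2 difference 7.004, SE 0.77, adjusted p = 0.000104. Retnlb (ILMN_1365931, chromosome 11, 65446433 to 65448319) had levels of 11.38, 13.42 and 10.19, against 4.32 to 6.75 with a median of 4.39 in RND (log2 difference 6.51, SE 0.65, adjusted p = 4.29e-05). All RHFD samples lay above all RND samples for both genes, and RND 37B and 39B were the highest RND samples for both. Of the 6 RND arrays, 4 detected Retnla and 2 detected Retnlb. The log2 differences computed with no background correction were 5.75 and 4.83. Since the 2 are paralogs, either probe could also bind the other's transcript, which was not examined.

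Itln1 (ILMN_1349778, chromosome 13, 86464641 to 86490655), which encodes intelectin, a lectin that binds sugars of microbial surfaces, had levels of 13.84, 14.41 and 13.64 in RHFD against 7.79 to 12.27 with a median of 9.92 in RND. The groups did not overlap, and the increase was 16.5-fold (95% confidence interval 5.87 to 46.2, log2 difference 4.04, SE 0.71, adjusted p = 0.015). Leaving out RHFD 21B, 25B or 3A moved its adjusted p to 0.0503, 0.104 or 0.0696. Of the 22 tested members of the list of antimicrobial and goblet cell defence genes, these 3 passed and none fell, and 5 were higher and 1 lower at an unadjusted p under 0.05. The list's median was 0.18. Reg4, a secreted lectin of endocrine and goblet cells, had levels of 11.85, 8.80 and 8.71 against 5.91 to 8.01 and did not pass (adjusted p = 0.137). Goblet cell markers had no member past the threshold among 18: Clca1 was at 1.75 (adjusted p = 0.15), Tff3 at 0.72 (adjusted p = 0.492) and Spink4 at -2.18 (adjusted p = 0.36), with a median of -0.05.

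**Figure D2:**
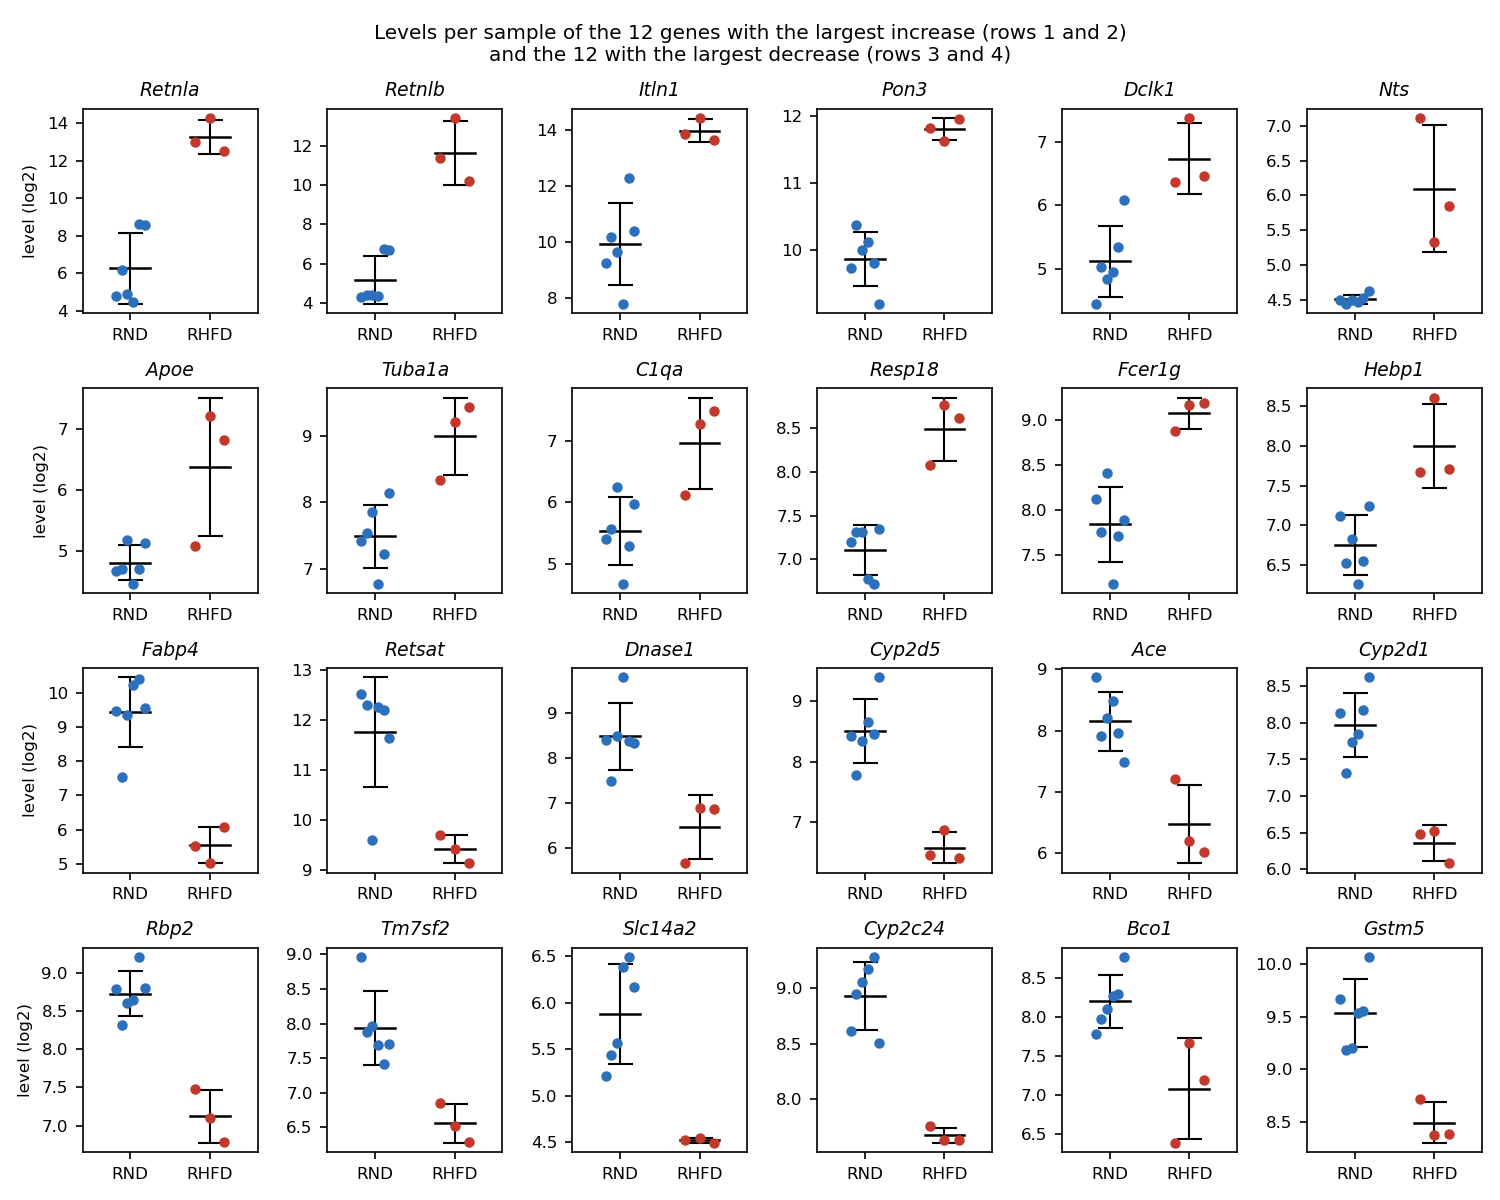
Each panel shows 1 gene, with the log2 level on the y axis (the scale differs between panels) and the 6 RND samples in blue and the 3 RHFD samples in red. Black lines are group means and error bars are SDs. The groups overlap in 3 of the 24 panels, Apoe and C1qa, where RHFD 21B lies among the RND samples, and Retsat, where RND 33B lies among the RHFD samples.

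Several genes of hormone-releasing cells were higher on high-fat diet. Resp18, which encodes a protein of neuroendocrine secretory granules, had levels of 8.08, 8.76 and 8.61 in RHFD against 6.72 to 7.34 with a median of 7.26 in RND and rose 2.59-fold (95% confidence interval 1.89 to 3.54, log2 difference 1.37, SE 0.22, adjusted p = 0.00636). Cryba2, a crystallin gene that is used as an enteroendocrine marker, had levels of 6.07, 6.44 and 6.31 against 4.92 to 5.54 with a median of 5.15 (log2 difference 1.08, SE 0.20, adjusted p = 0.0181), a log2 difference that was 0.43 without background correction. Nts, which encodes neurotensin, a gut peptide released by endocrine N cells after fat intake, had levels of 7.11, 5.33 and 5.85 in RHFD. It was detected on all 6 RHFD arrays (3 samples) and on 0 of the 6 RND arrays. Its RND levels were 4.44 to 4.63 with a median of 4.50. After background correction it was at least 2.47-fold higher (limma adjusted p = 0.0219). This bound sets the RHFD mean against the dimmest detected probes of the RND arrays, at a mean level of 4.79, and covers no sampling error. It holds only for background-corrected levels: without that correction the log2 difference of Nts was 0.63. Nts met the detection filter only through high-fat arrays (6 RHFD and 6 CHFD), so its detection contrast is no separate support. For these 3 genes the groups did not overlap.

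Of the 16 tested members of the enteroendocrine list these 3 passed and none fell. At an unadjusted p under 0.05, 10 were higher and 0 lower (5 higher where detection on all 12 RHFD and RND arrays was required). The list's median was 0.61 (0.24 without background correction). In 8 members all RHFD samples lay above all RND samples, which held for 2.51% of all probes. Chgb, a granin of the secretory granule, had levels of 11.74, 11.38 and 12.69 against 8.71 to 10.71 and just missed the threshold (log2 difference 1.96, SE 0.43, adjusted p = 0.0506). Fev, a transcription factor of serotonin cells, was at 1.03 (adjusted p = 0.063) and Chga, the other main granin, at 1.38 (adjusted p = 0.0773). The transcription factor genes Pax6, Isl1 and Rfx6 and the peptide gene Gip were on the array and were detected on none of the 12 arrays. The summed intensity of the list was 5161 to 8901 in RHFD and 1905 to 3561 in RND. Resp18 missed the threshold without RHFD 25B or 3A (adjusted p = 0.084 and 0.0658), Cryba2 without RHFD 25B or 3A or RND 37B (0.0519 to 0.115), and Nts without RHFD 21B or 3A or RND 35B or 37B (0.0521 to 0.0834).

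Dclk1, which encodes a microtubule-bound kinase and marks tuft cells, was the tuft cell gene that passed. Its levels were 6.37, 7.38 and 6.46 in RHFD against 4.44 to 6.08 with a median of 4.99 in RND, with no overlap, and it rose 3.07-fold (95% confidence interval 1.92 to 4.92, log2 difference 1.62, SE 0.33, adjusted p = 0.0307). Its log2 difference was 0.71 with the background left in, and it missed the threshold without any single sample other than RND 39B (adjusted p 0.0525 to 0.191). Of the 9 tested tuft cell markers, 6 were higher and 1 lower at an unadjusted p under 0.05 (3 higher without RHFD 25B). Only 1 was higher where detection on all 12 RHFD and RND arrays was required, which drops members. The median of the 9 was 0.79 (0.29 without background correction). Plcg2, a phospholipase of receptor signalling, had levels of 7.91, 9.34 and 8.43 against 6.11 to 7.88 (log2 difference 1.59, SE 0.37, adjusted p = 0.0611). Alox5, the 5-lipoxygenase of leukotriene synthesis, was at 0.73 (adjusted p = 0.0558), and Pou2f3, the transcription factor that specifies tuft cells, at 0.79 (adjusted p = 0.314). RHFD 25B was the highest RHFD sample for Dclk1, Plcg2, Alox5 and Pou2f3. Of the 6 RND arrays, 6 detected Plcg2, 5 detected Dclk1, 4 detected Alox5 and 3 detected Pou2f3. Plcg2, Alox5 and Alox5ap are also expressed by leukocytes, whose markers are described below, and their part in these values was not tested.

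The lactonase genes Pon3 and Pon2 and the gene of apolipoprotein E were higher. Their relative Pon1 was on the array and was detected on none of the 12 arrays. Pon3, which encodes a lactone- and ester-cleaving enzyme carried on high-density lipoprotein, had levels of 11.82, 11.62 and 11.95 in RHFD against 9.21 to 10.37 with a median of 9.91 in RND. It rose 3.79-fold (95% confidence interval 2.5 to 5.74, log2 difference 1.92, SE 0.29, adjusted p = 0.00388), with no overlap, and passed without each of the 9 RHFD and RND samples and under each of 10 other settings. Pon2 (chromosome 4, 34356270 to 34391684), the neighbour of Pon3 (chromosome 4, 34323546 to 34350244) and its intracellular paralog, had levels of 10.06, 9.67 and 9.77 against 8.26 to 9.24 with a median of 9.08 (log2 difference 0.88, SE 0.18, adjusted p = 0.0342); a further probe of the gene was at 0.77 (adjusted p = 0.079). Apoe, the lipid carrier that clears lipoprotein remnants and is made by macrophages among other cells, had levels of 5.09, 7.21 and 6.82 against 4.46 to 5.18 with a median of 4.70 (log2 difference 1.56, SE 0.31, adjusted p = 0.0297). For Apoe RHFD 21B lay within the RND range, and the gene was detected on 2 of the 6 RND arrays. Pon2 missed the threshold when any RHFD sample or RND 33B, 35B or 37B was left out (adjusted p 0.0505 to 0.147). Apoe missed it without RHFD 25B or 3A or RND 17B, 19B, 35B or 37B (0.0548 to 0.246). Without background correction the log2 difference of Apoe was 0.68 (adjusted p = 0.0583), and its adjusted p was 0.129 in the fit of only RHFD and RND. Under median scaling the adjusted p of Pon2 was 0.554. These 3 were the members past the threshold of 14 tested in the list of lipid absorption and lipoproteins, which had a median of 0.10 (-0.10 under median scaling). Abca1 and Abcg1, the exporters of cellular cholesterol, were at 0.65 and 0.71 (adjusted p = 0.137 and 0.122), and Apoc2, the activator of lipoprotein lipase, at -0.58 (adjusted p = 0.0981).

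Several of the other higher genes are expressed in leukocytes. C1qa, which encodes a chain of the complement component C1q and is made by macrophages, had levels of 6.11, 7.27 and 7.49 in RHFD against 4.68 to 6.26 with a median of 5.49 in RND (log2 difference 1.43, SE 0.31, adjusted p = 0.0435), and RHFD 21B overlapped the RND range. Fcer1g, the signalling chain shared by Fc receptors, had levels of 8.88, 9.17 and 9.19 against 7.18 to 8.41 with a median of 7.82 (log2 difference 1.23, SE 0.24, adjusted p = 0.0297) without overlap. Inpp5d, an inositol phosphatase of blood cells, was higher by 0.88 (adjusted p = 0.0435), Gpsm3, a G protein modulator of leukocytes, by 0.65 (adjusted p = 0.0435), and Rassf5, a Ras effector in lymphocyte adhesion, by 1.09 (adjusted p = 0.0443). Each of these 5 calls was lost when single samples were left out. Leaving out RHFD 25B gave adjusted p-values of 0.196 for C1qa, 0.144 for Fcer1g, 0.191 for Inpp5d, 0.147 for Gpsm3 and 0.18 for Rassf5, and leaving out RHFD 3A gave 0.336, 0.168, 0.333, 0.333 and 0.333. Over all samples that ended the call the range was 0.0745 to 0.336 for C1qa (RHFD 25B and 3A, RND 17B, 19B, 35B and 37B), 0.0525 to 0.168 for Fcer1g (all RHFD, RND 19B, 35B and 37B) and 0.0738 to 0.333 for Inpp5d (the same samples as C1qa). It was 0.0609 to 0.333 for Gpsm3 (all RHFD, RND 17B, 19B, 35B and 37B) and 0.0525 to 0.333 for Rassf5 (every sample other than RND 33B). Without background correction the log2 differences of C1qa, Inpp5d, Gpsm3 and Rassf5 were 0.70, 0.39, 0.21 and 0.58. With the random block Inpp5d missed the threshold (adjusted p = 0.0973), and C1qa missed it in the fit of only RHFD and RND (0.127).

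The marker lists of leukocytes gave these values. Over all probes, 4.51% were higher and 5.12% lower at an unadjusted limma p under 0.05. All RHFD samples lay above all RND samples in 2.51% of all probes and below in 3.48%. Of 16 macrophage and dendritic cell markers 2 passed, both higher, and 9 were higher and 0 lower at an unadjusted p under 0.05, with a median of 0.58 (0.33 without background correction) and 6 members without overlap. Aif1, a calcium-binding protein of macrophages, was at 1.39 (adjusted p = 0.0773) and C1qc, a further C1q chain, at 1.35 (adjusted p = 0.168). Of 25 T and natural killer cell markers 0 passed in limma, and 15 were higher and 0 lower at an unadjusted p under 0.05. Their median was 0.93 (0.51 without background correction). All RHFD samples lay above all RND samples in 1 of the 25 and below in 1. Cd8a, the co-receptor of cytotoxic T cells, had levels of 6.68, 7.94 and 7.79 against 4.66 to 7.39 (log2 difference 1.96, SE 0.59, adjusted p = 0.171). Gzma, a granzyme of killer cells, had levels of 9.61, 8.60 and 10.23 against 7.06 to 9.26 (adjusted p = 0.254). RND 33B was the highest RND sample for both and overlapped the RHFD range. That count of 15 was 9 without RHFD 25B, 5 without RHFD 3A and 2 on chip 1 alone. Cd4, Cd5 and Cd28 were detected on none of the 12 arrays, nor were the macrophage genes Adgre1, Cd163 and Mrc1. Of 10 mast cell and granulocyte markers 0 passed in limma, and 5 were higher at an unadjusted p under 0.05, with a median of 0.49 (0.17 without background correction). Mcpt1, a mast cell protease, had levels of 8.63, 10.10 and 8.75 against 7.26 to 8.28 (adjusted p = 0.137). The summed intensity was 7581 to 9980 in RHFD and 6136 to 7507 in RND for the macrophage list, 4855 to 6608 and 2535 to 5583 for the T and natural killer list, and 892 to 1918 and 468 to 666 for the mast cell list. Their part in the other results was not tested.

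Antigen presentation genes did not pass. Among 9 class II genes 0 passed in limma and 2 had an unadjusted p under 0.05, with a median of 0.20 and Cd74, the invariant chain, at 0.99 (adjusted p = 0.447). Of 26 class I and peptide loading genes 0 passed, and 3 were higher and 2 lower at an unadjusted p under 0.05. The 28 interferon response genes had 0 past the threshold and 4 with an unadjusted p under 0.05, among them Ubd, a ubiquitin-like modifier, with levels of 9.25, 9.33 and 8.90 against 5.91 to 7.63 (adjusted p = 0.0946). Ptgs2, the inducible cyclooxygenase, was at 1.43 (adjusted p = 0.103) among 33 cytokine and inflammasome genes, of which 0 passed and 5 had an unadjusted p under 0.05. Tnf, Il6, Il10 and Nlrp3 were detected on none of the 12 arrays.

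The remaining named genes that were higher have varied roles. Tuba1a, an alpha-tubulin, had levels of 8.33, 9.21 and 9.43 in RHFD against 6.78 to 8.13 with a median of 7.47 in RND (log2 difference 1.501, SE 0.32, adjusted p = 0.0437). Hebp1, a haem-binding protein, had levels of 7.66, 8.60 and 7.71 against 6.27 to 7.25 with a median of 6.69 (log2 difference 1.23, SE 0.26, adjusted p = 0.0435). The groups did not overlap for either gene. Gas7, an adaptor of the actin cytoskeleton, was higher by 1.14 (adjusted p = 0.0495), Clic2, of the intracellular chloride channel family, by 1.07 (adjusted p = 0.0297), and Glipr1, a secreted protein of the CAP family, by 1.00 (adjusted p = 0.0181). Itprid1, a gene of which little is known in the gut, was detected on all 6 RHFD arrays (3 samples) and 0 of 6 RND arrays. After background correction it was at least 1.596-fold higher (limma adjusted p = 0.0352). It was detected on 2 CHFD arrays and 1 CND array, so it met the detection filter only through RHFD. Its detection contrast is therefore no separate support. Hebp1, Gas7 and Itprid1 missed the threshold without any sample other than RND 39B (adjusted p 0.0538 to 0.258, 0.0626 to 0.264 and 0.0503 to 0.195), and Tuba1a without any other than RHFD 21B or RND 39B (0.0503 to 0.333). Clic2 missed it without RHFD 25B or 3A or RND 17B, 35B or 37B (0.0548 to 0.304) and Glipr1 without RHFD 21B or 25B or RND 37B (0.0519 to 0.113). Without background correction the log2 differences of Gas7, Clic2 and Itprid1 were 0.49, 0.42 and 0.33.

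Fabp4 had the largest decrease of a named gene. It encodes a cytosolic fatty acid binding protein, a target of PPAR gamma that is best known from adipocytes, macrophages and capillary endothelium. Fabp4 (ILMN_1376344, GRCr8 chromosome 2, 93488251 to 93492961) had levels of 5.53, 5.02 and 6.09 in RHFD and, in RND, of 7.53 to 10.41 with a median of 9.52. All RHFD samples lay below all RND samples, and RND 19B, at 7.53, was the lowest of RND, the others being at 9.37 to 10.41. The gene fell 14.7-fold (95% confidence interval 6.57 to 33.1, log2 difference -3.88, SE 0.56, adjusted p = 0.00275) and passed without each of the 9 samples. It was detected on all arrays of both groups. On chip 1 alone it was at -3.36 (adjusted p = 0.12) and on chip 2 alone at -4.41 (adjusted p = 0.00556), with the same 3 RHFD samples on both. Fabp4 was the member past the threshold of 14 tested adipocyte markers, whose median was -0.04. Lipe, the hormone-sensitive lipase, was at -0.78 (adjusted p = 0.321) and Gpd1, of glycerol phosphate synthesis, at -0.55 (adjusted p = 0.343), and the adipocyte hormone gene Lep was detected on none of the 12 arrays.

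Genes of fatty acid oxidation were lower or did not pass. Of 49 tested members of the list of fatty acid oxidation and PPAR targets, Fabp4 and Hadha passed, both lower, and 0 were higher and 11 lower at an unadjusted p under 0.05 (6 without RHFD 25B and 7 without RND 35B). The median was -0.14. Hadha, the alpha subunit of the mitochondrial trifunctional protein of beta-oxidation, had levels of 9.27, 9.14 and 9.31 in RHFD against 9.41 to 10.08 with a median of 9.79 in RND. The groups did not overlap, and it fell 1.45-fold (95% confidence interval 1.23 to 1.72) (adjusted p = 0.046). The call was lost without any single sample other than RND 33B or 39B (adjusted p 0.0714 to 0.204). Ucp2, a mitochondrial carrier, was at -0.76 (adjusted p = 0.0717), Eci1, an isomerase of beta-oxidation, at -0.79 (adjusted p = 0.208), Acot1, an acyl-CoA thioesterase, at -1.18 (adjusted p = 0.281) and Bdh1, of ketone body metabolism, at -0.65 (adjusted p = 0.171). In each of these 4 genes all RHFD samples lay below all RND samples.

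Of the 20 tested genes of retinoid handling, 3 passed and all 3 were lower: Retsat, Rbp2 and Bco1. Vitamin A enters enterocytes as retinol, bound by the carrier Rbp2, or as beta-carotene, which Bco1 cleaves to retinal, and Retsat saturates retinol and also acts in fat cell differentiation. The 250 bases before the start of Rbp2 and Retsat, from RefSeq promoters on GRCr8, are shown because both hold the motif CAAAGGTCA, which was searched on both strands; it contains AGGTCA, which nuclear receptors bind. The motif was chosen after the sequences were seen. It occurs in 104 of 27457 promoters (0.379%), and in 2 of the 29 retinoid genes with an entry. In Rbp2 (chr8:107963292-107963541, plus strand) and Retsat (chr4:106211209-106211458, plus strand) it starts 76 and 181 bases before the gene's start, on the opposite strand in Rbp2. The start that the promoter table uses for Rbp2 lies inside the span of the annotated gene. Capitals mark the match, which describes the letters only.

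Rbp2: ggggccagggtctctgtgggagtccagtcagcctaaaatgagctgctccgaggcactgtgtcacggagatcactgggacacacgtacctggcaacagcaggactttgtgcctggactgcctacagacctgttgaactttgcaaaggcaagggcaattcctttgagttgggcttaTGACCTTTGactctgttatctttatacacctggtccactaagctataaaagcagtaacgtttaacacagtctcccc

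Retsat: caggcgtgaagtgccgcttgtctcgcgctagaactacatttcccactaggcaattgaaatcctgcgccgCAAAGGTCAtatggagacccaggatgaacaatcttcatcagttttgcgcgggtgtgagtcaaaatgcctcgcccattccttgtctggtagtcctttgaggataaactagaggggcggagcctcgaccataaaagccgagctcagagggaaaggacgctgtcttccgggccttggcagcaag

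Retsat (ILMN_1356474, GRCr8 chromosome 4, 106211459 to 106220222) had levels of 9.69, 9.41 and 9.12 in RHFD and of 9.59 to 12.52 with a median of 12.24 in RND. RND 33B, at 9.59, lay between the RHFD samples, and the other 5 RND samples were at 11.65 to 12.52. The difference was 5.11-fold (95% confidence interval 2.59 to 10.1, log2 difference -2.35, SE 0.47, adjusted p = 0.0297). Rbp2 (ILMN_1365288, chromosome 8, 107958670 to 107983850) had levels of 7.48, 7.10 and 6.78 against 8.32 to 9.21 with a median of 8.71 and fell 3.05-fold (95% confidence interval 1.91 to 4.85, log2 difference -1.61, SE 0.32, adjusted p = 0.0297). Bco1 had levels of 6.38, 7.67 and 7.19 against 7.78 to 8.77 with a median of 8.19 (log2 difference -1.12, SE 0.24, adjusted p = 0.0435). The groups did not overlap for Rbp2 and Bco1. Rbp7, a further cellular retinol-binding protein, had levels of 8.47, 8.62 and 7.94 against 8.74 to 10.09 and missed the threshold (log2 difference -0.97, SE 0.26, adjusted p = 0.0981). The median of the 20 genes was -0.05, with 0 higher and 5 lower at an unadjusted p under 0.05, and Rbp4, Cyp26a1 and Cyp26b1 were detected on none of the 12 arrays. Retsat missed the threshold without any single sample other than RND 33B or 39B (adjusted p 0.0548 to 0.184), Rbp2 without any other than RND 35B or 39B (0.0501 to 0.231), and Bco1 without any other than RHFD 25B (0.0548 to 0.236).

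The sterol reductases of cholesterol synthesis were lower. Tm7sf2 reduces the C14 double bond of sterol intermediates and Dhcr7 makes cholesterol from 7-dehydrocholesterol, and genes of this pathway are known for promoters in which NF-Y binds CCAAT beside the element of the sterol-sensing factor SREBP-2. CCAAT, searched on both strands in the 250 bases before the start, occurs in 9920 of 27457 promoters (36.1%) and in 17 of the 20 cholesterol genes with an entry (85.0%). Among all called genes with an entry, it occurs in 6 of the 16 lower in RHFD (37.5%) and 4 of the 16 higher (25%). The lower genes as a whole were thus near the share of all promoters. For the sterol regulatory element only a fixed pattern of letters was searched, also on both strands. That pattern occurs in 68 of the 27457 promoters (0.248%) and in 0 of the 20 cholesterol genes. Other forms of the element were not searched, so this count cannot tell whether these promoters hold the element. The promoters of Tm7sf2 and Dhcr7 are shown to compare them: Tm7sf2 (chr1:212789542-212789791, minus strand) has 1 match, in capitals, 89 bases before the start used, and Dhcr7 (chr1:208444184-208444433, plus strand) has none. As for Rbp2, the start used for Tm7sf2 lies inside the span of the annotated gene. The absence of a match says only that these letters are not in this window.

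Tm7sf2: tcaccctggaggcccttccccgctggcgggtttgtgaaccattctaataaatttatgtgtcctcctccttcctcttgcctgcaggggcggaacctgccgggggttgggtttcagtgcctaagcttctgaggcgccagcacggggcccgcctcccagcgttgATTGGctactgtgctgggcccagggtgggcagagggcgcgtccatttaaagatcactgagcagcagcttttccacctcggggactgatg

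Dhcr7: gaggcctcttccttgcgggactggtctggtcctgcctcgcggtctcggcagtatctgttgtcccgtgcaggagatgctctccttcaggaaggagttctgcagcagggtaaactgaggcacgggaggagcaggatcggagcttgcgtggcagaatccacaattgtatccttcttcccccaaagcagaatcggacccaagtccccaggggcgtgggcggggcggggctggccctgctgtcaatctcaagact

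Tm7sf2 (ILMN_1358232, GRCr8 chromosome 1, 212785217 to 212789572) had levels of 6.85, 6.52 and 6.29 in RHFD and of 7.41 to 8.96 with a median of 7.79 in RND. It fell 2.61-fold (95% confidence interval 1.83 to 3.72, log2 difference -1.38, SE 0.24, adjusted p = 0.015), and a further probe of the gene was at -1.25 (adjusted p = 0.0545). Dhcr7 (ILMN_1349202, chromosome 1, 208444434 to 208460408) had levels of 8.75, 8.94 and 8.52 against 9.48 to 10.14 with a median of 9.76 and fell 2.06-fold (95% confidence interval 1.5 to 2.83, log2 difference -1.04, SE 0.22, adjusted p = 0.0408). Neither gene's groups overlapped. These 2 passed of 19 tested cholesterol genes, and 0 were higher and 6 lower at an unadjusted p under 0.05 (11 without RND 17B), with a median of -0.41 (-0.21 without background correction and -0.19 on chip 1 alone) and 15 members below 0. Tmem97, a sterol-regulated membrane protein, was at -0.79, Fdft1, squalene synthase, at -0.55 and Fdps, which makes farnesyl diphosphate, at -0.60 (adjusted p = 0.171, 0.322 and 0.389), each without overlap. The summed intensity of the list was 6865 to 7449 in RHFD and 9104 to 11358 in RND, ranges that did not overlap. Among 14 genes of fatty acid synthesis 0 passed in limma and 4 were lower at an unadjusted p under 0.05, with Scd, the desaturase of stearate, at 6.32, 5.56 and 5.66 against 6.67 to 7.65 (log2 difference -1.35, SE 0.32, adjusted p = 0.0611). Tm7sf2 missed the threshold without RHFD 25B or 3A (adjusted p = 0.104 and 0.121), and Dhcr7 without any sample other than RND 33B or 39B (0.056 to 0.302).

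Several drug-metabolising enzymes were lower. Of 56 tested members of the xenobiotic list, 6 passed, all lower, and 1 was higher and 14 lower at an unadjusted p under 0.05 (9 lower on chip 2 alone), with a median of -0.25. Of the cytochromes P450, which oxidise drugs and lipids, Cyp2d5 had levels of 6.45, 6.88 and 6.41 in RHFD against 7.78 to 9.39 with a median of 8.44 in RND and fell 3.8-fold (95% confidence interval 2.18 to 6.6, log2 difference -1.92, SE 0.38, adjusted p = 0.0297). Cyp2d1 had levels of 6.49, 6.52 and 6.08 against 7.31 to 8.62 with a median of 7.99 and fell 3.05-fold (95% confidence interval 1.92 to 4.83, log2 difference -1.61, SE 0.32, adjusted p = 0.0297). The 2 genes are paralogs on chromosome 7 (115779981 to 115784554 and 115789026 to 115793430), and whether each probe binds only its own transcript was not tested. Cyp2c24 had levels of 7.76, 7.63 and 7.64 against 8.51 to 9.28 with a median of 9.01 and fell 2.39-fold (95% confidence interval 1.74 to 3.29, log2 difference -1.26, SE 0.22, adjusted p = 0.015).

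Of the other enzymes of this list, Gstm5, a glutathione transferase, had levels of 8.72, 8.37 and 8.39 in RHFD against 9.18 to 10.07 with a median of 9.55 in RND (log2 difference -1.05, SE 0.19, adjusted p = 0.015). Akr7a3, which reduces aflatoxin dialdehyde in rat liver, had levels of 9.49, 9.45 and 8.98 against 9.89 to 10.64 with a median of 10.44 (log2 difference -1.04, SE 0.21, adjusted p = 0.0361). Ugt1a6, a glucuronosyltransferase of phenols whose gene shares exons with the other Ugt1a genes, had levels of 7.14, 7.35 and 6.93 against 7.61 to 8.44 with a median of 7.97 (log2 difference -0.87, SE 0.15, adjusted p = 0.015). In all 6 genes every RHFD sample lay below every RND sample. Cyp2c24 and Gstm5 missed the threshold without RHFD 25B or 3A (adjusted p = 0.104 and 0.112, and 0.104 and 0.115), and Ugt1a6 without RHFD 21B or 3A (0.0525 and 0.125). Cyp2d5 missed it without any RHFD sample or RND 17B, 33B or 35B (0.0503 to 0.168), Cyp2d1 without any RHFD sample or RND 17B, 33B or 37B (0.0503 to 0.197), and Akr7a3 without any sample other than RND 19B or 39B (0.0503 to 0.304).

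The other named genes that were lower were Ace, Dnase1, Slc14a2 and Agmat. Ace, the angiotensin-converting peptidase of the brush border, had levels of 7.21, 6.20 and 6.02 in RHFD against 7.49 to 8.87 with a median of 8.09 in RND and fell 3.2-fold (95% confidence interval 1.9 to 5.4, log2 difference -1.68, SE 0.36, adjusted p = 0.0435). Dnase1, the secreted nuclease that degrades free DNA, had levels of 5.66, 6.89 and 6.87 against 7.496 to 9.79 with a median of 8.39 and fell 4.02-fold (95% confidence interval 2.19 to 7.39, log2 difference -2.01, SE 0.42, adjusted p = 0.0402). Slc14a2, a urea transporter, was detected on 6 of 6 RND and 0 of 6 RHFD arrays. Its levels were 4.52, 4.55 and 4.49 in RHFD against 5.22 to 6.49 with a median of 5.86 in RND. After background correction it was at least 2.11-fold lower (limma adjusted p = 0.0219). It met the detection filter only through chow arrays (6 RND and 6 CND), so its detection contrast is no separate support. Agmat, the agmatinase that releases urea from agmatine, had levels of 4.94, 5.14 and 4.87 against 5.56 to 5.97 with a median of 5.89 (log2 difference -0.86, SE 0.16, adjusted p = 0.0254). None of these 4 genes overlapped between the groups. Slc14a2 was at -0.50, Agmat at -0.30 and Ace at -1.09 without background correction, and with the random block Agmat missed the threshold (adjusted p = 0.0583). Slc14a2 and Agmat missed the threshold without any RHFD sample or RND 35B or 37B (adjusted p 0.0536 to 0.121 and 0.059 to 0.161). Ace missed it without any sample other than RHFD 21B or RND 39B (0.0627 to 0.333), and Dnase1 without any other than RND 19B or 39B (0.0591 to 0.189).

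The lists behind these genes had few members past the threshold. Of 36 ion and water transport genes Slc14a2 passed, and 0 were higher and 6 lower at an unadjusted p under 0.05. The water channel gene Aqp8 had levels of 6.07, 8.32 and 5.15 in RHFD against 7.60 to 11.23 in RND and did not pass (log2 difference -2.73, SE 0.85, adjusted p = 0.193), and RHFD 25B lay within the RND range. Kcnq1, a basolateral potassium channel, was at -0.87 and S100g, the calcium-binding protein calbindin-D9k, at -0.99 (adjusted p = 0.312 and 0.391). Of 27 absorptive colonocyte markers Ace passed, and 0 were higher and 4 lower at an unadjusted p under 0.05. Slc5a8, a sodium-coupled transporter of butyrate, was at -0.81 (adjusted p = 0.414). Of 41 genes of amino acid, sugar and peptide handling, Agmat and Ace passed, and 1 was higher and 9 lower at an unadjusted p under 0.05, with Arg2, the mitochondrial arginase, at -1.57 and Xpnpep2, a membrane aminopeptidase, at -1.07 (adjusted p = 0.23 and 0.19).

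Genes of the cell cycle had the lowest median of the lists, without a member past the threshold in limma. Of 42 tested, 37 were below 0, 1 was higher and 15 lower at an unadjusted p under 0.05 (9 lower without RHFD 3A), and the median was -0.45 (-0.25 without background correction). In 14 of them all RHFD samples lay below all RND samples, which held for 3.48% of all probes. The summed intensity was 20843 to 21636 in RHFD and 25186 to 29497 in RND. Ube2c, the ubiquitin-conjugating enzyme of mitotic exit, had levels of 6.53, 6.21 and 6.001 against 7.34 to 8.00 (log2 difference -1.42, SE 0.32, adjusted p = 0.0558). Cdk1, the kinase that starts mitosis, was at -0.91, Aurkb, the chromosomal passenger kinase, at -0.95 and Cdc20, the activator of the anaphase-promoting complex, at -0.88 (adjusted p = 0.251, 0.204 and 0.249), each without overlap. Of 9 stem and crypt cell genes 0 passed and 0 had an unadjusted p under 0.05, with a median of -0.20, and Lgr5 was detected on none of the 12 arrays.

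**Figure D3:**
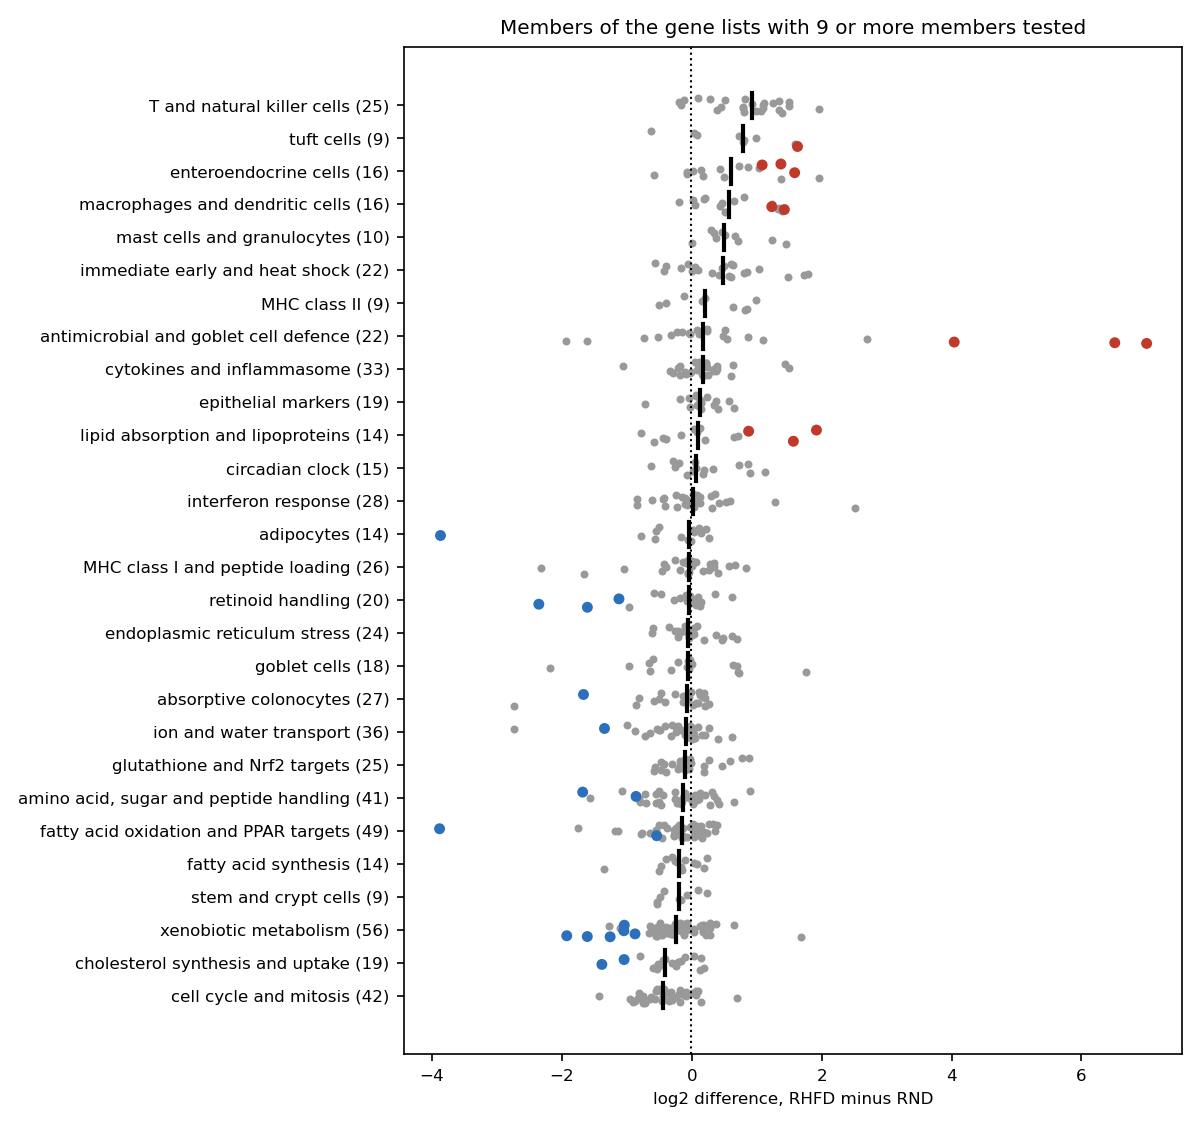
Each row is a gene list with its number of tested members in brackets, and each point is the log2 difference RHFD minus RND of 1 member. Red and blue points passed the threshold, black bars are list medians, and the dotted line is the median of all probes tested (-0.004). The medians run from 0.93 for T and natural killer cells to -0.45 for the cell cycle.

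The other lists had no member past the threshold. One RHFD sample differed in immediate early and heat shock genes: their mean level was 10.01 in RHFD 3A, 8.48 and 8.51 in the other 2 RHFD samples and 8.45 to 8.69 in RND. Among control-born samples CHFD 4A (10.17) and CND 14A (9.48) were also high, and the other 9 lay at 8.53 to 8.86. Egr1, an immediate early transcription factor, had levels of 7.72, 8.42 and 12.30 against 6.63 to 8.86 (adjusted p = 0.593), and Jun and Atf3, of the AP-1 and stress response families, levels of 7.94, 7.72 and 10.80 and 6.14, 6.26 and 11.04 in RHFD. RHFD 3A carries the letter A in its title while the other 8 RHFD and RND samples carry B, and CND 18A (8.57) and 20A (8.68), also of letter A, were not high. The meaning of the letter is not given in the sources used here. Its part in the results was not tested beyond leaving the sample out. Of 15 circadian clock genes 3 were higher at an unadjusted p under 0.05, with Per2 at 1.14 (adjusted p = 0.36). Of 24 genes of endoplasmic reticulum stress 3 were higher and 3 lower, and of 25 genes of glutathione and Nrf2 2 were higher and 3 lower. The lists of fibroblasts (6 tested), smooth muscle (5), endothelium (6), B and plasma cells (7), neurons and glia (3) and red blood cells (6) had medians of 0.22, -0.19, 0.03, -0.08, 0.05 and -0.28. Red cell transcripts varied between samples, with a mean level of 5.06 to 8.06 in RHFD and 5.82 to 8.45 in RND.

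Among the 5 probes without a gene name, 3 had large differences. ILMN_1368735 had levels of 5.03, 6.25 and 4.71 in RHFD against 8.81 to 11.33 with a median of 10.30 in RND (log2 difference -4.84, SE 0.63, adjusted p = 0.000851), and over the series all 8 high-fat samples lay at 4.71 to 6.25 and all 12 chow samples at 8.81 to 12.78. ILMN_1650140 had levels of 5.27, 5.15 and 5.15 against 9.59 to 10.11 with a median of 9.98 (log2 difference -4.74, SE 1.04, adjusted p = 0.0495). Its 20 values lay in 2 ranges, 9.59 to 10.52 in the 6 RND samples, CHFD 4A and CND 38B, and 4.63 to 5.43 in the other 12, among them every RHFD sample. ILMN_1369184 had levels of 8.17, 8.19 and 8.34 against 4.44 to 5.999 with a median of 5.24 (log2 difference 2.97, SE 0.62, adjusted p = 0.0402). ILMN_1371094 was higher by 1.44 and ILMN_1372232 was at -1.34 (adjusted p = 0.015 and 0.0219). ILMN_1368735 passed without each of the 9 samples. ILMN_1650140 passed only without RND 39B, and the others gave an adjusted p of 0.0731 to 0.239. ILMN_1369184 missed the threshold without each of the 9 (0.0501 to 0.196), ILMN_1371094 without RHFD 25B or 3A (0.0658 to 0.113) and ILMN_1372232 without RHFD 25B or 3A or RND 35B or 37B (0.0536 to 0.159).

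The class I genes RT1-S2 and RT1-A1, which encode antigen-presenting molecules of the rat histocompatibility complex, did not pass. Their 20 samples were split at the largest gap between sorted levels, a rule that divides any probe into 2 ranges. RT1-S2 had levels of 6.93, 6.43 and 6.17 in RHFD against 8.48 to 9.23 in RND (log2 difference -2.31, SE 0.55, adjusted p = 0.063), and the same 8 samples that were high for ILMN_1650140 were high for it, at 8.48 to 9.79 against 5.39 to 7.29 in the other 12. RT1-A1 had levels of 10.52, 10.35 and 10.52 against 11.69 to 12.91 (log2 difference -1.65, SE 0.48, adjusted p = 0.15), with 9 of the 20 samples at 11.69 to 12.91 and 11 at 9.58 to 10.98. Other class I and peptide loading genes went the other way. RT1-S3 had levels of 9.73, 9.39 and 9.38 in RHFD against 8.21 to 8.94 in RND (log2 difference 0.84, SE 0.25, limma adjusted p = 0.168). RT1-T24-4 was at 0.57 and Tap2 at 0.66 (limma adjusted p = 0.284 and 0.375).

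**Figure D4:**
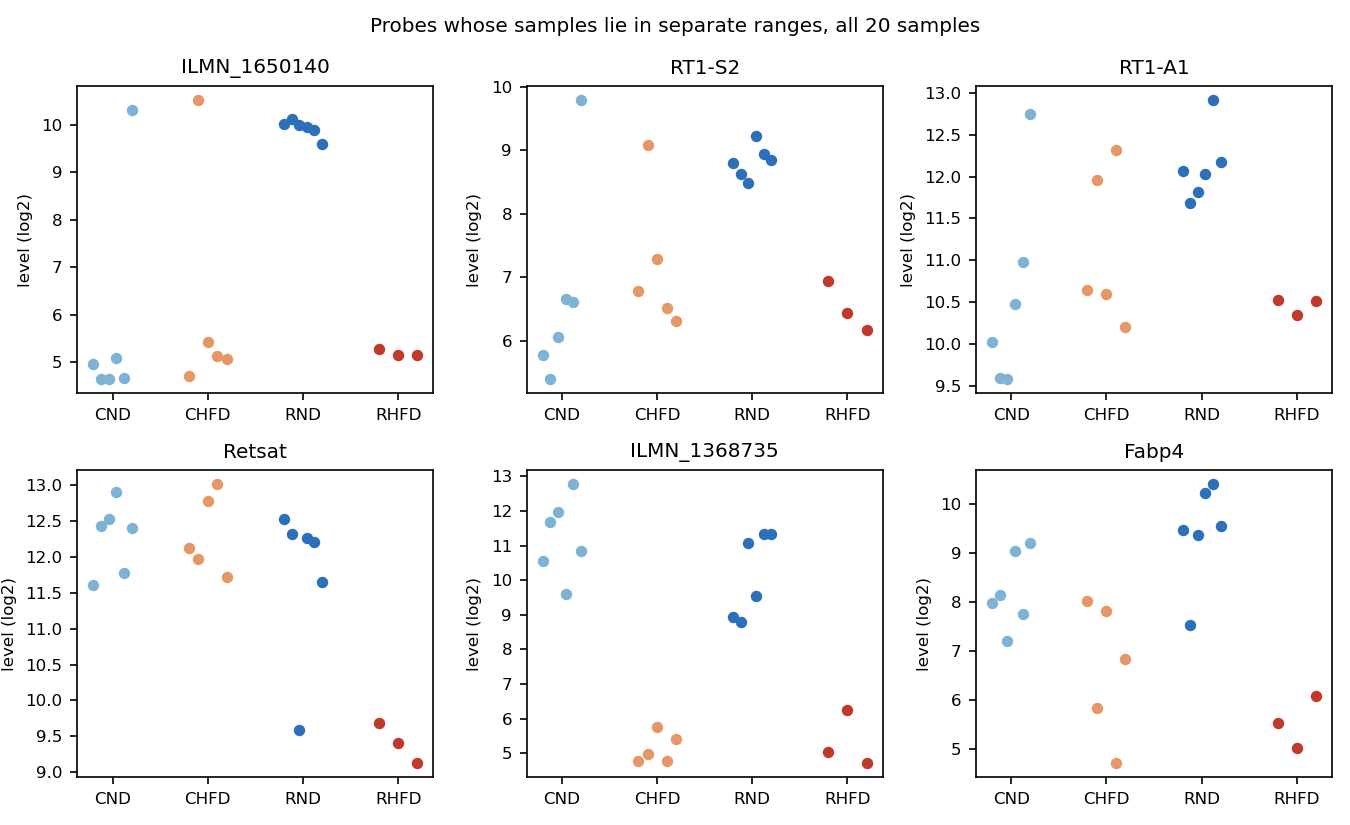
The log2 level of 6 probes is shown in all 20 samples by group, with 1 point per sample and a different y scale in each panel. Retsat is low (9.12 to 9.69) in the 3 RHFD samples and RND 33B and at 11.61 to 13.02 in the other 16. ILMN_1650140 and RT1-S2 are high in the same 8 samples.

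The diet effect was set beside that in control-born rats, CHFD (n = 5) against CND (n = 6). The 2 comparisons share no sample but come from the same fit, with a common estimate of spread and chip term. Their calls are therefore not independent. In control-born rats 116 probes (1.14%) passed, 82 higher and 34 lower. Of the 43 probes that passed in IUGR rats, 41 had the same sign in control-born rats and 23 passed there too with the same sign, which is 53.5% of the 43 and 19.8% of the 116. They were 16 of the 23 higher and 7 of the 20 lower probes. The share of all tested probes with the same sign at both birth states is not given here. Among the shared calls were Retnla (IUGR 7.004, control-born 7.53), Retnlb (6.51 and 7.02), Itln1 (4.04 and 5.12), Pon3 (1.92 and 1.96), Rbp2 (-1.61 and -1.74) and Agmat (-0.86 and -1.04). Their sizes in the 2 birth states differed by less than 2 SE of the interaction.

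The difference between birth states was tested as the interaction of birth state with diet. In limma 0 probes passed, the smallest adjusted p was 0.942, and 420 probes (4.12%) had an unadjusted p under 0.05. Of the 43 probes 6 were among them. Retsat was lower in IUGR rats and at 0.05 in control-born rats (adjusted p = 0.984 there), an interaction of -2.40 (SE 0.62, unadjusted p = 0.000971). Fabp4 was at -1.58 in control-born rats (adjusted p = 0.127), an interaction of -2.31 (SE 0.74, unadjusted p = 0.0053). In control-born rats ILMN_1650140 was at 0.45, Itprid1 at 0.26, Apoe at 0.60 and Resp18 at 0.76, and the unadjusted p of the limma interaction was 0.00122, 0.014, 0.0298 and 0.0432. The limma interaction of Retsat passed without RND 33B (-2.84, adjusted p = 0.012) and that of RT1-S2 without CND 38B (-3.31, adjusted p = 0.00548). Those of RT1-S2 and ILMN_1650140 passed on chip 1 alone (adjusted p = 0.00132 and 5.35e-07). Each of these runs left out samples that went against the pattern. RND 33B was the 1 RND sample low for Retsat. CHFD 4A and CND 38B, the control-born samples high for RT1-S2 and ILMN_1650140, were both on chip 2. No interaction passed under the other settings, the random block included.

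**Figure D5:**
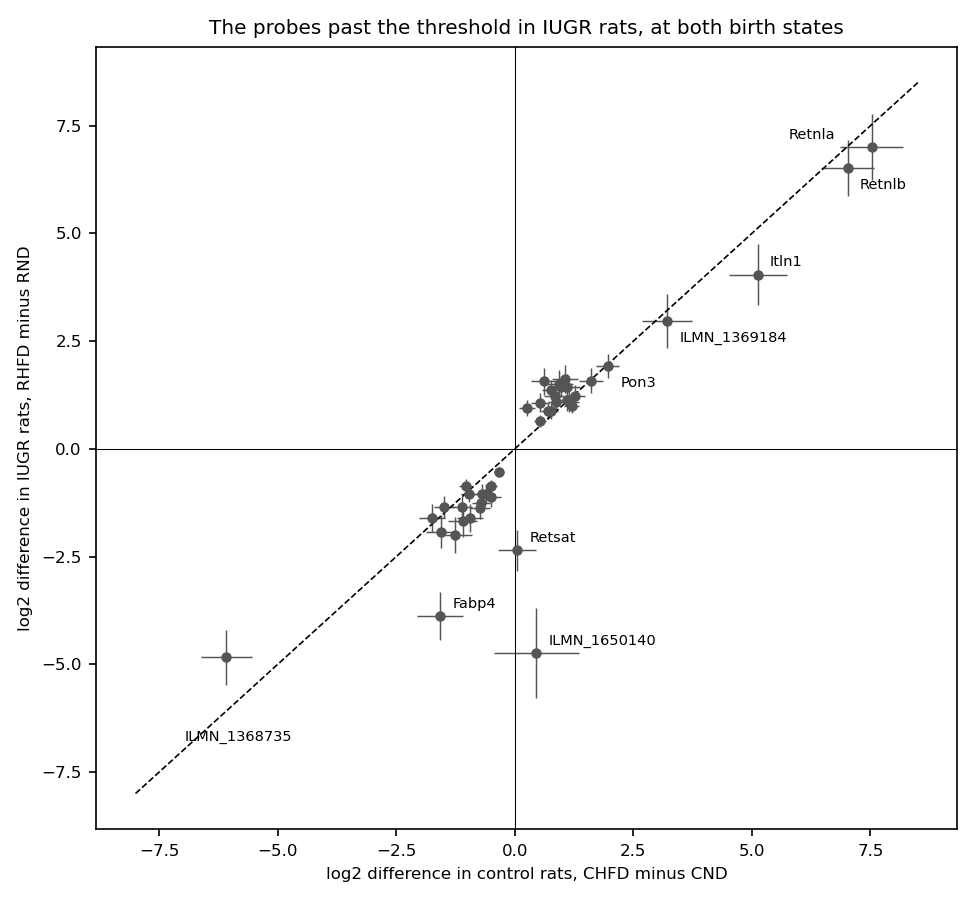
Each point is 1 of the 43 probes past the threshold in IUGR rats, with the log2 difference in control-born rats (CHFD minus CND) on the x axis and in IUGR rats (RHFD minus RND) on the y axis. Bars are standard errors and the dashed line marks equal differences. Retsat, Fabp4 and ILMN_1650140 lie farthest below the line, and most of the other lower probes also lie below it, by less. The probes were chosen by their difference in IUGR rats.

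Set against the lists, medians at the 2 birth states were 0.61 and 0.47 (IUGR and control-born) for enteroendocrine cells, 0.79 and 0.42 for tuft cells, 0.93 and 1.04 for T and natural killer cells, 0.58 and 0.89 for macrophages and dendritic cells, and 0.20 and 0.80 for class II genes. For cholesterol synthesis they were -0.41 and -0.35, and for the cell cycle -0.45 and -0.35. The differences between these medians were not tested.

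The number of calls depended on single samples. It was 22 without RHFD 21B, 8 without RHFD 25B and 8 without RHFD 3A, and 22 without RND 17B, 27 without RND 19B, 32 without RND 33B, 17 without RND 35B, 13 without RND 37B and 58 without RND 39B. Of the 43 probes, 5 passed without each of the 9 samples: Retnla, Retnlb, Pon3, Fabp4 and ILMN_1368735. The first 3 and ILMN_1368735 also passed under each of the other settings that tested them, and no probe changed sign under any of them. All 43 had the same sign on both chips, where 12 probes passed on chip 1 alone and 31 on chip 2 alone. Itln1 was at 4.22 on chip 1 and 3.86 on chip 2 (adjusted p = 0.00424 and 0.129), Retnla at 7.94 and 6.07, Pon3 at 1.77 and 2.07, Rbp2 at -1.46 and -1.76, and Retsat at -2.09 and -2.62.

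Settings that changed the processing ended the calls of many genes. In the fit of only RHFD and RND these were Nts, Apoe, Tuba1a, C1qa, Hebp1, Rassf5, Clic2, Inpp5d, Pon2, Gpsm3, Hadha, Bco1, Ace, Dnase1 and Retsat (adjusted p 0.0528 to 0.129). Without background correction they were ILMN_1369184, Dclk1, Nts, Apoe, Tuba1a, C1qa, Hebp1, Gas7, Rassf5, Clic2, Itprid1, Inpp5d, Gpsm3, Agmat, Akr7a3, Dhcr7, Bco1, Slc14a2, Rbp2, Cyp2d1, Ace, Cyp2d5, Dnase1, Retsat and ILMN_1650140 (adjusted p 0.0518 to 0.168), and on the authors' normalized values the same probes missed the threshold. Without the detection filter, with more probes to adjust over, they were Itln1, ILMN_1369184, Dclk1, Nts, Apoe, Tuba1a, C1qa, Fcer1g, Hebp1, Gas7, Rassf5, Clic2, Itprid1, Inpp5d, Pon2, Akr7a3, Dhcr7, Bco1, ILMN_1372232, Slc14a2, Rbp2, Cyp2d1, Ace, Cyp2d5, Dnase1, Retsat and ILMN_1650140 (adjusted p 0.0632 to 0.155). Under median scaling they were ILMN_1369184, Tuba1a, ILMN_1371094, C1qa, Gas7, Rassf5, Clic2, Glipr1, Inpp5d, Pon2, Gpsm3, Hadha, Agmat, Ugt1a6, Dhcr7, Cyp2c24, ILMN_1372232 and Dnase1 (adjusted p 0.0667 to 0.554), and without a chip term Gas7, Rassf5, Inpp5d, Gpsm3, Hadha, Akr7a3, Bco1, ILMN_1372232, Rbp2, Cyp2d1, Ace, Cyp2d5 and ILMN_1650140 (adjusted p 0.0542 to 0.216). Hadha missed the threshold where detection on all 12 arrays was required (adjusted p = 0.062).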

How the data were processed

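Colonic epithelial cells were, per the labels' protocols, released from proximal and distal colon with chelators and vortexing, RNA was extracted with Trizol and a column with DNase, and biotin-labelled cRNA was hybridised to Illumina rat arrays. The submitters' processing notes name GenomeStudio, with no version. Per the file headers, 1 deposited table gives an average intensity per probe and array without normalization, each beside a detection p-value deposited by the authors. The deposited series matrix holds intensities that are quantile normalized by the authors, with column medians of 100.2083 to 100.4167; it was used as an alternative.

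The deposited intensities went through neqc of limma 3.58.1 in R 4.3.3 (background correction with an offset of 16, quantile normalization, log2). A probe entered the test when at least 6 of the 24 arrays detected it at p under 0.05. Arrays sharing a title number were averaged, and a model of the 4 groups and chip was fitted with limma over all 20 samples, two-sided, with Benjamini-Hochberg adjustment. Names come from the platform's table for 13793 probes, of which 13757 matched a RefSeq gene on GRCr8. Of the 38 called genes 32 had a RefSeq promoter. Genes past the threshold may be named, the 12 largest in each direction by sample, and up to 6 members of each of 34 lists by p. A gene with several probes is named by its brightest. The gene lists were chosen with earlier results of these data known, as were the rules. The functions were tested on simulated data. The number of arrays limits the precision.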

Additional observations from a re-analysis of the deposited data

Results flagged for a closer look

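In 3 of the 43 probes past the threshold, 1 of the 6 RND samples lay far from the others by Dixon's criterion, in 43 tests of which chance marks about 1 in 20. For Tm7sf2 the log2 level was 8.96 in RND 17B and 7.41 to 7.97 in the other 5. For Retsat it was 9.59 in RND 33B and 11.65 to 12.52 in the other 5, so that this sample lay among the RHFD samples. For Fabp4 it was 7.53 in RND 19B and 9.37 to 10.41 in the other 5, all above the RHFD samples. A different sample stood apart in each gene. The reasons were not tested.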

How the results depend on the processing

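The 43 calls in RHFD against RND became 90 with all 24 arrays and the title number as a random block (estimated correlation 0.812), 28 with median scaling, 12 on chip 1 alone, and 19 each without background correction, without the detection filter and on the authors' normalized values. They ran from 8 (without RHFD 25B or 3A) to 58 (without RND 39B) when 1 RHFD or RND sample was left out, and from 31 to 59 without 1 control-born sample, with 22 without RHFD 21B, 22 without RND 17B, 27 without RND 19B, 17 without RND 35B and 13 without RND 37B. Counts within 1.5 times of 43 came from the fit of only RHFD and RND (59, of which 28 were among the 43), no chip term (30, all among the 43), detection on all 12 arrays (31, of which 29) and chip 2 alone (31, of which 16). The 0 interaction calls became 2 on chip 1 alone and 1 each without RND 33B or CND 38B (0 to 1 over single samples left out). Without background correction 17 of the 43 log2 differences shrank by over 1.5 times, as did the medians of the enteroendocrine, tuft, T and natural killer, macrophage, mast, cholesterol and cell cycle lists. None of the 43 changed sign under these settings. The counts of list members at an unadjusted p under 0.05, and the runs on them with samples left out, were added after seeing the data. No paired analysis was possible because the groups share no title numbers. With 3 RHFD samples, runs without 1 of them or on 1 chip test fewer samples; for the other changes the cause was not tested.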
